A study of Mus musculus with 8 samples.

Results

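The 9 genes described here are Otx2, Zic2, Pou3f1, Sox3, Sall2, Utf1, Fgf5, T and Mixl1. They are grouped as markers of cells that have left naive pluripotency or start to form mesoderm, although Utf1 also marks embryonic stem cells. They were taken by name from the 23420 gene symbols counted in mouse embryonic stem cells (ESCs), and all 9 were among the 19424 genes tested, those counted at least once somewhere in the 8 libraries. The mRNA of wild-type (IPO13+/+) ESCs and of ESCs that lack Importin-13 (IPO13-/-), a receptor that carries proteins both into and out of the nucleus, was sequenced either untreated or after oxidative stress, which was 125 µM H2O2 for 1 h and then 2 h of recovery in medium without H2O2. Each of the 4 groups held 2 libraries. Both lines came from blastocysts at day 5 of preimplantation development on a 129 x C57BL/6 background, and both were grown without feeder cells on gelatin in serum with LIF, a cytokine that holds ESCs in self-renewal. The sources used here do not say how many clones each line represents, nor that the replicates were separate cultures, so the p-values below measure only the spread between these libraries.

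Naive ESCs resemble the epiblast of the blastocyst before implantation. When they move towards the primed state of the later epiblast, transcription factors such as Otx2, Pou3f1 and Zic2 act at a new set of enhancers and the growth factor Fgf5 is switched on. Primed cells can then enter the primitive streak, the structure from which mesoderm arises and in which T and Mixl1 are expressed. ESC cultures in serum and LIF are known to be mixed, with a minority of cells further along this path than the rest.

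Library totals ran from 60397877 to 73789079 counts, and 3 counts, used here as the detection floor, equalled between 0.0407 and 0.0497 CPM (counts scaled to a common library total). Counting intervals and floors cover counting error only. The deleted gene was checked first: Ipo13 had 4716 to 4928 counts in the 4 IPO13+/+ libraries and 1555 to 1965 in the 4 IPO13-/- libraries, or 2.72-fold lower in untreated and 2.79-fold lower in treated cells, so its RNA was reduced and not absent. The untreated IPO13+/+ libraries differed most from each other. Their chi-square per gene between replicates was 15, against 2.26 to 6.59 in the other groups. The tests of the 9 genes and Ipo13, and the numbers of members and of all genes called, were refitted without each library in turn. Values of other genes and lists, medians, neighbours and likeness of pattern were not. Both lines expressed the core pluripotency genes, whose 8 listed members averaged at least 73.3 CPM each. Summed fibroblast and feeder markers stayed between 9.48 and 11.8 CPM in all libraries, with 5 of the 8 averaging below 1 CPM. Summed neural markers, mostly Tubb3, lay at 152 to 155 CPM in untreated and 134 to 137 CPM in treated IPO13+/+ ESCs and at 167 to 168 CPM in all IPO13-/- libraries. Summed primitive endoderm markers, mostly Lama1, ran from 209 to 239 CPM in untreated and 187 to 194 CPM in treated IPO13+/+ ESCs, and from 182 to 194 CPM and 155 to 162 CPM in the same IPO13-/- groups. The 8 trophectoderm markers summed to 102 to 119 CPM. Single markers moved apart within these sums between untreated genotypes (edgeR, with the FDR alone): of the neural markers, 3 were higher in IPO13-/- ESCs (Pax6 2.64-fold, Nes 1.64-fold, Map2 1.51-fold) and 1 lower (Sox1 1.93-fold), and of the trophectoderm markers, 2 were higher (Tfap2c 1.81-fold, Gata3 1.57-fold) and 3 lower, Krt8 (2.38-fold) and Krt18 (1.86-fold) among them. With the FDR alone, 18.7% of all tested genes were higher and 19.4% lower between these groups. After stress in IPO13-/- ESCs, Pax6 fell 2.39-fold and Sox1 1.62-fold. Both were also lower after stress in IPO13+/+ ESCs, Pax6 at 0.692 against 1.37 CPM and Sox1 at 7.13 against 9.56 CPM. With the FDR alone, 3 neural markers fell in IPO13+/+ and 2 in IPO13-/- ESCs, against 13.8% and 14.4% of all tested genes. Of the fibroblast and feeder markers, Col1a1 was 2.10-fold lower and Acta2 higher (0.436 against 0.1005 CPM) in untreated IPO13-/- ESCs, both past 2-fold. The median log2 fold change of these 8 markers was 0.83, on the low levels given above. These markers were named after their values were seen. None of the markers in these lists was at 0 in all libraries, and their part in the results below was not tested.

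The 9 genes covered a wide range of levels. Expressed per kilobase of merged exons, so that genes can be compared, group means of Utf1 were 201 to 270 CPM per kb, followed by Zic2 at 3.61 to 9.56, Otx2 at 1.61 to 3.03, Pou3f1 at 2.43 to 2.48, Sox3 at 0.866 to 1.45 and Sall2 at 0.475 to 0.796. Fgf5 followed at 0.181 to 0.552 CPM per kb, and Mixl1 (0.0964 to 0.207) and T (0.0788 to 0.253) were at the bottom. The ranges of group means overlapped for Otx2 and Pou3f1, for Sall2 and Fgf5, for Fgf5 and Mixl1 and for Mixl1 and T, and for no other neighbours in this order. By mean CPM, Utf1 exceeded 96.6% of the tested genes while T and Mixl1 exceeded 29.8% and 29.7%, so that fold changes of those genes rest on 10 to 51 counts a library.

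**Figure D1:**
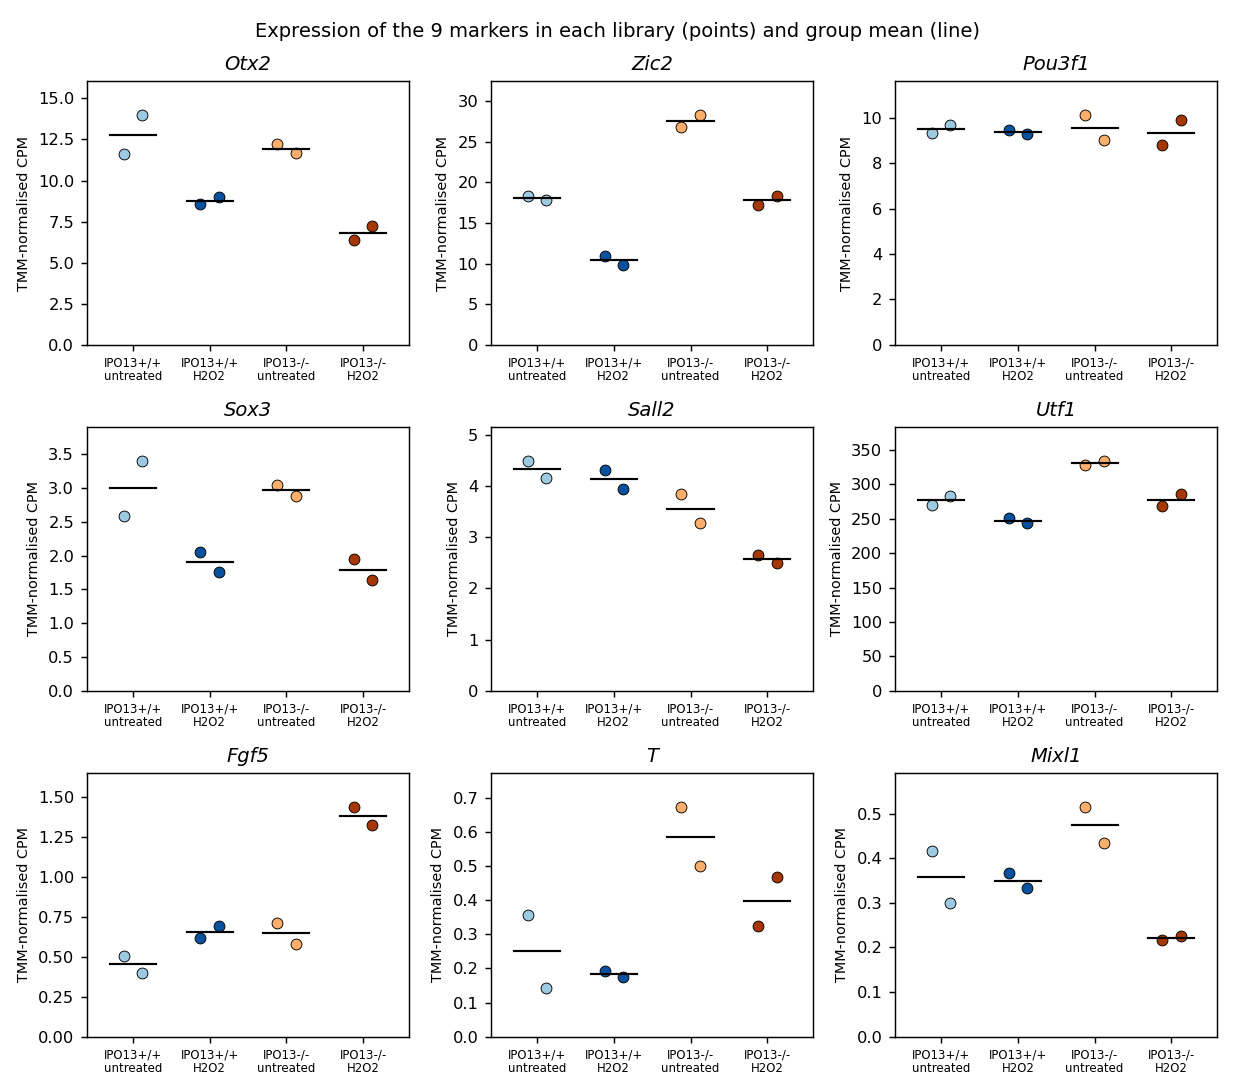
Each point is 1 library (TMM-normalised CPM on the y axis, starting at 0, n = 2 per group) and each line a group mean, for the 4 groups on the x axis of each panel. Zic2 sat highest in untreated IPO13-/- ESCs (26.8 and 28.2 CPM), Fgf5 in treated IPO13-/- ESCs (1.33 and 1.44 CPM), and Pou3f1 stayed between 8.79 and 10.1 CPM in all 8 libraries.

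Loss of IPO13 in untreated cells was accompanied by more T, Zic2 and Utf1 RNA and less Sall2 RNA. T rose 2.39-fold, Zic2 1.52-fold and Utf1 1.19-fold in IPO13-/- against IPO13+/+ ESCs, and Sall2 was 1.21-fold lower. Zic2 and Utf1 passed in all 17 alternative fits, whereas T lost its call in 2 of them, each without 1 library (lowest log2 value 0.73), and Sall2 in 6. The other 5 genes, Otx2, Pou3f1, Sox3, Fgf5 and Mixl1, did not pass a false discovery rate (FDR) of 0.05 in edgeR's quasi-likelihood test with Benjamini-Hochberg adjustment over all 19424 genes. With a 2-fold change also required, 1 of the 9 genes was higher (T) and 0 were lower, against 2.86% of all tested genes higher and 1.84% lower. With the FDR alone, 3 of 9 were higher and 1 of 9 lower, against 18.7% and 19.4% of all tested genes, and against 25.1% and 28.4% of the 12198 genes averaging at least 1 CPM. The median log2 fold change of the 9 was 0.26, and that of all tested genes 0. When scaled by library totals without normalisation factors, the 3634 higher and 3777 lower genes became 4995 and 2453.

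Fgf5 (2.10-fold), T (2.16-fold), Zic2 (1.71-fold) and Utf1 (1.12-fold) were higher in treated IPO13-/- than in treated IPO13+/+ ESCs, and Sall2 (1.60-fold) and Otx2 (1.29-fold) were lower, all with FDR below 0.05 (edgeR). The T difference lost its call in 8 of 17 alternative fits. Past 2-fold, 2 of the 9 were higher (Fgf5 and T) and 0 lower, against 2.58% and 1.98% of all tested genes, and with the FDR alone the members numbered 4 and 2 against 19.1% and 17.5% of all. Among genes averaging at least 1 CPM those shares were 26.5% and 24.4%. The median log2 difference of the 9 was -0.00 beside 0 for all tested genes.

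Zic2, Sox3, Otx2 and Utf1 were lower after H2O2 in both genotypes. The share of all tested genes lower in both genotypes was not computed. In IPO13+/+ ESCs, Zic2 (1.74-fold), Sox3 (1.57-fold), Otx2 (1.46-fold) and Utf1 (1.12-fold) fell, and none of the 9 rose. In IPO13-/- ESCs the same 4 genes fell, by 1.55-fold, 1.66-fold, 1.76-fold and 1.19-fold in that order, as did Mixl1 (2.15-fold) and Sall2 (1.39-fold), while Fgf5 rose 2.12-fold. No member passed the FDR with a 2-fold change in IPO13+/+ ESCs in either direction by edgeR, limma-voom or DESeq2. At an unadjusted edgeR p under 0.05 were Fgf5, which was higher, and the same 4 lower genes that passed the FDR. How many of all tested genes had such an unadjusted p was not computed. Of all tested genes, 2.75% were higher and 0.149% lower past 2-fold in IPO13+/+ ESCs, and 11.5% and 13.8% with the FDR alone, where the 9 gave 0 higher and 4 lower. In IPO13-/- ESCs, 1 of 9 was higher (Fgf5) and 1 lower (Mixl1) past 2-fold against 2.52% and 0.371% of all, and with the FDR alone 1 was higher and 6 were lower against 14.9% and 14.4%. Among genes averaging at least 1 CPM, 21.4% in IPO13+/+ and 21.5% in IPO13-/- ESCs were lower with the FDR alone. The median log2 fold change of the 9 was -0.17 in IPO13+/+ and -0.59 in IPO13-/- ESCs, beside -0.00 and 0 for all tested genes. Scaling by library totals changed the split of all genes from 2229 higher and 2679 lower to 2646 and 1731 in IPO13+/+ ESCs, and from 2901 and 2803 to 2489 and 3545 in IPO13-/- ESCs. These are whole-culture RNA levels, in which fewer cells expressing a gene and less RNA per cell cannot be told apart. The genotype and stress comparisons share libraries in pairs, so their values are set side by side and not counted as separate evidence.

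**Figure D2:**
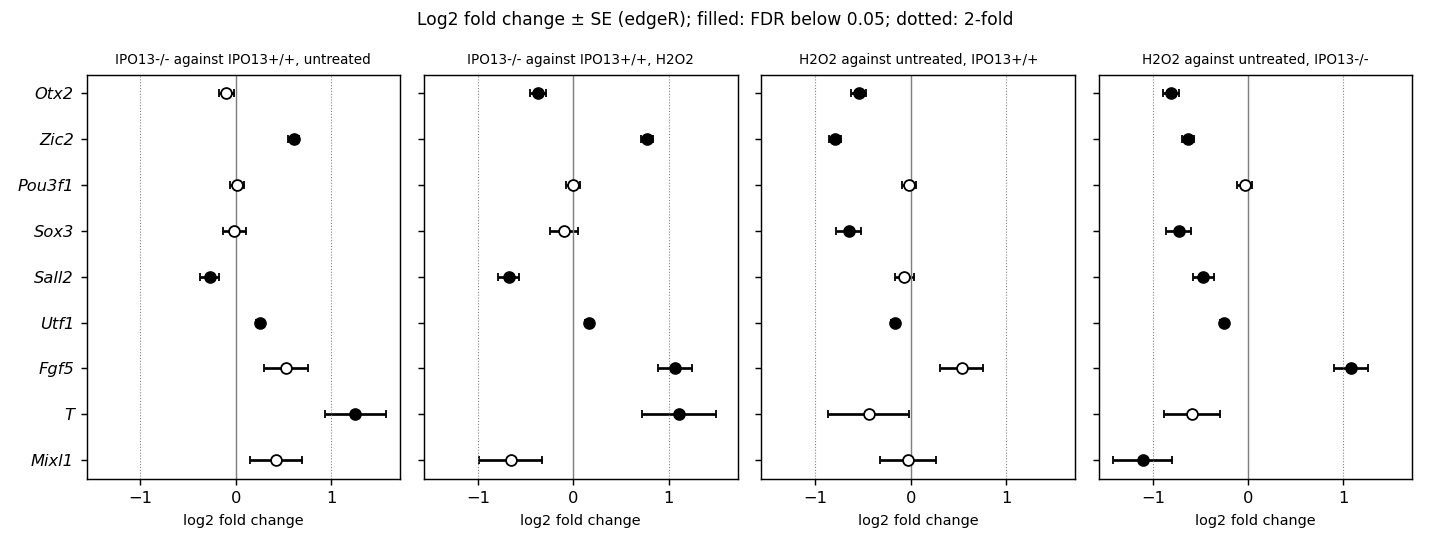
Points are log2 fold changes on the x axis with their SE (edgeR, 8 libraries) for the 9 genes (rows) in the 4 comparisons (panels), filled where the FDR was below 0.05, with dotted lines at 2-fold. Zic2 lay right of 0 in both genotype panels and left of 0 in both stress panels, Fgf5 lay right of 0 in all 4 panels and was filled in 2, and Pou3f1 lay at 0 within its SE in all of them.

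Whether the response to H2O2 differed between genotypes was tested by the interaction of genotype and treatment. None of the 9 genes passed the FDR in edgeR, and none did in limma-voom, in DESeq2 or in a fit blocked on replicate number, against 2.01% of all tested genes with a higher and 0.705% with a lower response in IPO13-/- ESCs. The numbers behind those shares, 390 and 137, became 209 and 469 when scaled by library totals. At an unadjusted p under 0.05, 3 members remained, all with a lower response in IPO13-/- cells: Sall2 (log2 difference -0.40 ± 0.145, edgeR FDR = 0.147), Mixl1 (-1.08 ± 0.428, FDR = 0.205) and Otx2 (-0.27 ± 0.115, FDR = 0.248). The share of all tested genes at that unadjusted p was not computed, so the 3 cannot be set against the FDR shares above. For Fgf5, which passed the test after stress in IPO13-/- and not in IPO13+/+ ESCs, the interaction was 0.54 ± 0.295 with an FDR of 0.403, so the responses of the genotypes were not shown to differ. The median interaction was -0.09 for the 9 genes and 0.02 for all tested genes.

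Otx2 encodes a homeodomain transcription factor that drives the exit from the naive state. It lies on the minus strand at chr14:48657677-48673819 (GRCm38, GENCODE M21, ENSMUSG00000021848.16), where an antisense gene, Otx2os1, overlaps it but had only 0 to 6 counts a library (if strand was not used in counting, reads of the pair cannot be told apart). A second overlapping gene, Gm49154, lies on the same strand as Otx2 and is not counted in the tables used here. Otx2 counts in IPO13+/+ ESCs were 779 and 978 before and 583 and 622 after stress, and those in IPO13-/- ESCs were 926 and 723 before and 415 and 446 after it. Treated libraries lay below untreated ones in both genotypes without overlap, and the treated IPO13-/- pair was the lowest of all. In TMM-normalised CPM, which corrects for depth and composition, the group means were 12.8 ± 1.66, 8.78 ± 0.304, 11.9 ± 0.411 and 6.81 ± 0.566 in the same order (SD, n = 2). The log2 fold change after stress was -0.54 ± 0.0786 (SE) in IPO13+/+ and -0.81 ± 0.0834 in IPO13-/- ESCs, with edgeR FDRs of 5.45e-06 and 1.22e-08. Treated IPO13-/- cells held less Otx2 RNA than treated IPO13+/+ cells (-0.37 ± 0.0869, FDR = 0.0012), a difference that kept an FDR below 0.05 in all 17 alternative fits, up to 0.0437. Untreated genotypes overlapped, but the difference, -0.10 with an FDR of 0.349, became -0.22 with an FDR of 0.0186 without untreated IPO13+/+ replicate 1 and 0.04 without replicate 2, and without replicate 2 the interaction was -0.41 with an FDR of 0.0203. The 10 nearest genes averaging at least 1 CPM, 5 on either side, had a median log2 fold change after stress of 0.00 in IPO13+/+ and -0.02 in IPO13-/- ESCs, and none fell below -0.24.

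Otx2 fell and Fgf5 rose after stress in IPO13-/- ESCs, and the stretches before their starts are shown with that of T because these members moved in unlike ways. Each is the 250 bases before a RefSeq transcript start on GRCm38.p6, read 5′ to 3′ on the strand of the gene. Capitals mark 3 motifs on either strand, namely the core of the GC box, GGGCGG, then the shorter CACCC box that many zinc finger factors bind, and the TATA box, TATAAA. Otx2 has several RefSeq starts, of which the most upstream is shown.
Otx2, chr14:48667645-48667894, minus strand: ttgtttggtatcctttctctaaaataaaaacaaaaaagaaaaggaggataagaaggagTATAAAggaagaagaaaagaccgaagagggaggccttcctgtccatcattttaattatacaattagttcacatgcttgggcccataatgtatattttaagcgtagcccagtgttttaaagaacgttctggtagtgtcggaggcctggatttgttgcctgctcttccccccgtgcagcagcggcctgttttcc
Fgf5, chr5:98253934-98254183, plus strand: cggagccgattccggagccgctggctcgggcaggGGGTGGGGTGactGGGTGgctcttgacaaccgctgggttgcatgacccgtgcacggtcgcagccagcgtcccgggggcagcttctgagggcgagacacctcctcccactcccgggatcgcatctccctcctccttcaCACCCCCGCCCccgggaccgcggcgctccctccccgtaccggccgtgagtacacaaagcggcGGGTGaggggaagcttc
T, chr17:8434173-8434422, plus strand: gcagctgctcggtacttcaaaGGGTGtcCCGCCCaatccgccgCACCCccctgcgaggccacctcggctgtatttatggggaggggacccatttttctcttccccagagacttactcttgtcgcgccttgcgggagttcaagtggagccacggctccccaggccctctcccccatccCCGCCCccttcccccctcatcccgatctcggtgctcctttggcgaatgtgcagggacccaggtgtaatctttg
The Otx2 window shown held 1 TATAAA, no GC box and no CACCC, and 42% of its bases were G or C. The other Otx2 windows, 3 in number, differed from it: none held a TATAAA, 48.4 to 53.6% of their bases were G or C, and the most downstream held 4 CACCC motifs. Fgf5 had 1 GC box, 5 CACCC motifs and 70.8% G or C. In the T window there were 2 GC boxes, 2 CACCC motifs and 62.8% G or C. Across the 32851 windows of the same length the median G and C content was 52.4%, and GGGCGG occurred in 32.7%, CACCC in 52% and TATAAA in 12.4% of them. These matches are letters in a window and no measure of binding.

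Zic2, a zinc finger transcription factor that occupies enhancers in pluripotent cells, lies at chr14:122475435-122479852 on the plus strand (ENSMUSG00000061524.8). IPO13+/+ ESCs gave 1227 and 1248 counts without and 743 and 683 with H2O2, and IPO13-/- ESCs gave 2033 and 1751 without and 1114 and 1135 with it. Every IPO13-/- library was above every IPO13+/+ library of the same treatment, and every treated library below every untreated one of the same genotype. Mean CPM was 18.1 ± 0.334, 10.4 ± 0.734, 27.5 ± 0.962 and 17.8 ± 0.808 (SD, n = 2). The treated IPO13-/- mean thus lay beside the untreated IPO13+/+ mean. In edgeR the genotype difference was 0.61 ± 0.0578 on the log2 scale in untreated (FDR = 2.37e-09) and 0.77 ± 0.0647 in treated cells (FDR = 2.29e-10). Stress gave -0.80 ± 0.0641 in IPO13+/+ (FDR = 1.5e-10) and -0.63 ± 0.0584 in IPO13-/- ESCs (FDR = 1.81e-09). All 4 comparisons kept an FDR below 0.05 in each of the 17 alternatives, with an interaction of 0.17 ± 0.0869 (FDR = 0.383).

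Zic5, another gene of the Zic family, starts 9757 bases from Zic2 on the opposite strand, at chr14:122456795-122465677, and was looked at after its values were seen. Its counts were 415 and 400, then 234 and 228 in IPO13+/+ ESCs before and after stress, and 709 and 544, then 304 and 321 in IPO13-/- ESCs. In CPM the groups ran without overlap from untreated IPO13-/- down through untreated IPO13+/+ and treated IPO13-/- to treated IPO13+/+ ESCs. Its log2 differences were 0.61 ± 0.0768 (FDR = 2.96e-07) and 0.55 ± 0.0945 (FDR = 3.09e-05) between genotypes, untreated and treated, by edgeR. After stress Zic5 changed by -0.82 ± 0.0903 in IPO13+/+ (FDR = 5.75e-08) and -0.88 ± 0.0804 in IPO13-/- ESCs (FDR = 1.42e-09). The 8 nearest expressed genes of Zic2, Zic5 among them, had a median log2 difference between untreated genotypes of -0.03, with a range from -0.41 to 0.61.

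**Figure D3:**
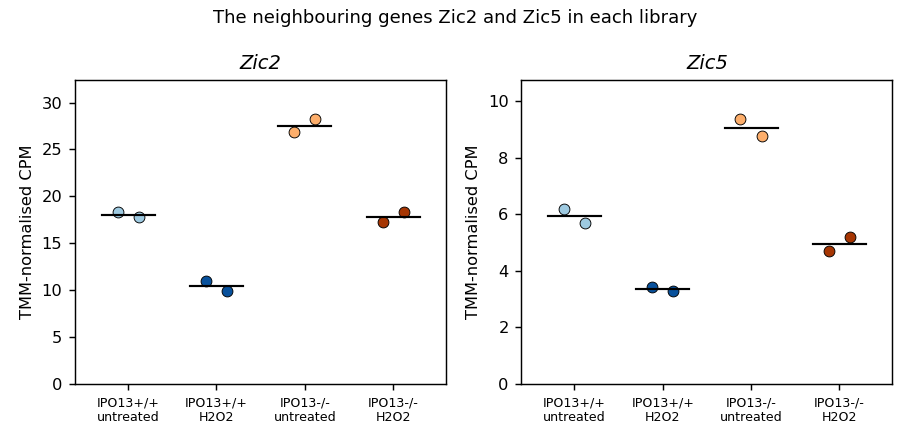
Points are libraries and lines group means of TMM-normalised CPM (y axes from 0, n = 2 per group) for Zic2 and its divergent neighbour Zic5. In both panels the untreated IPO13-/- pair is highest (26.8 and 28.2 CPM for Zic2, 9.37 and 8.76 CPM for Zic5) and the treated IPO13+/+ pair lowest.

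Pou3f1, the POU domain factor also called Oct6, is a widely used marker of the state after naive pluripotency and lies at chr4:124656807-124660655 (plus strand, ENSMUSG00000090125.3). Its counts were 624 and 677, 643 and 641, 764 and 559, and 569 and 612 in untreated and treated IPO13+/+ and untreated and treated IPO13-/- ESCs. Libraries overlapped between the groups in every comparison. Mean CPM stayed at 9.48 ± 0.257, 9.36 ± 0.125, 9.55 ± 0.767 and 9.34 ± 0.782 (SD, n = 2), and log2 differences ran from -0.04 to 0.01 with SEs of 0.0737 to 0.075 and edgeR FDRs of 0.78 or above. An overlapping gene on the other strand, Gm2164, is not counted in the tables used here.

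Sox3 belongs to the SoxB1 family, which acts in pluripotent and early neural cells, and lies on the minus strand at chrX:60891366-60893430 (ENSMUSG00000045179.9). Counts moved from 174 and 238 without H2O2 to 140 and 122 with it in IPO13+/+ ESCs, and from 231 and 179 to 126 and 101 in IPO13-/- ESCs. All treated libraries lay below all untreated ones, and the genotypes overlapped. Mean CPM went from 2.995 ± 0.569 to 1.91 ± 0.207 in IPO13+/+ and from 2.97 ± 0.118 to 1.79 ± 0.222 in IPO13-/- ESCs (SD, n = 2). The log2 fold change after stress was -0.65 ± 0.13 (FDR = 3.83e-04) and -0.73 ± 0.135 (FDR = 1.18e-04, edgeR), and the FDR stayed below 0.05 in all 17 alternatives. Between genotypes the differences were -0.01 ± 0.119 untreated (FDR = 0.981) and -0.09 ± 0.147 treated (FDR = 0.682), and their sign changed with the scaling or the library left out.

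Sall2, a zinc finger factor of the Spalt family, lies at chr14:52311172-52328762 on the minus strand (ENSMUSG00000049532.11). IPO13+/+ libraries held 301 and 292 counts before and 294 and 273 after stress, and IPO13-/- libraries 291 and 203 before and 172 and 155 after it. The treated IPO13-/- pair stood below the other 6 libraries. Mean CPM was 4.33 ± 0.225, 4.14 ± 0.263, 3.56 ± 0.405 and 2.58 ± 0.107 (SD, n = 2). Between treated genotypes the log2 difference was -0.68 ± 0.106 (edgeR FDR = 9.37e-06) and passed in all 17 alternatives. In untreated cells it was -0.27 ± 0.0975 (FDR = 0.0273), and the call was lost with limma-voom (FDR = 0.0557), with DESeq2 (FDR = 0.139), with library totals (FDR = 0.127), without untreated IPO13+/+ replicate 1 (FDR = 0.153) and without untreated IPO13-/- replicate 2 (-0.17, FDR = 0.296). Stress gave -0.47 ± 0.109 in IPO13-/- ESCs (FDR = 0.00147), which became -0.34 with an FDR of 0.0982 without untreated IPO13-/- replicate 1, and -0.06 ± 0.0951 in IPO13+/+ ESCs (FDR = 0.699). The 10 neighbours of Sall2 had a median log2 difference of -0.18 between untreated and -0.10 between treated genotypes, with the lowest at -0.28 and -0.27.

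Utf1 encodes a chromatin-associated factor of pluripotent cells, found in ESCs and in the epiblast, and lies at chr7:139943789-139945112 on the plus strand (ENSMUSG00000047751.9). Its counts in IPO13+/+ ESCs were 18164 and 19873 without and 17075 and 16809 with H2O2, and in IPO13-/- ESCs 24888 and 20714 without and 17363 and 17733 with it. In CPM the groups did not overlap in any of the 4 comparisons, at 277 ± 9.16, 247 ± 5.49, 331 ± 3.55 and 277 ± 13.1 (SD, n = 2). Its changes were small and measured with small errors: 0.26 ± 0.0412 (FDR = 1.27e-05) between untreated genotypes and -0.26 ± 0.0413 (FDR = 2.1e-05) after stress in IPO13-/- ESCs by edgeR. Between treated genotypes it was 0.17 ± 0.0414 (FDR = 0.00195), lost without treated IPO13+/+ replicate 2 (FDR = 0.0572) or treated IPO13-/- replicate 2 (FDR = 0.09). The change after stress in IPO13+/+ ESCs, -0.17 ± 0.0414 (FDR = 0.00332), was lost when only those 4 libraries were fitted (FDR = 0.0651) and without treated IPO13+/+ replicate 2 (FDR = 0.0849). Unlike Utf1, its 10 neighbours had a positive median log2 fold change after stress, 0.12 in IPO13+/+ and 0.26 in IPO13-/- ESCs.

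Fgf5, a secreted growth factor and the classical marker of the epiblast after implantation, lies at chr5:98254184-98277030 on the plus strand (ENSMUSG00000029337.2). Counts were 34 and 28 before and 42 and 48 after stress in IPO13+/+ ESCs, and 54 and 36 before and 93 and 82 after stress in IPO13-/- ESCs. The treated IPO13-/- pair stood above the other 6 libraries, and the exact Poisson 95% intervals of its counts, 75.1 to 114 and 65.2 to 102, overlapped only that of untreated IPO13-/- replicate 1 (40.6 to 70.5). Mean CPM was 0.453 ± 0.0757, 0.656 ± 0.0546, 0.646 ± 0.0942 and 1.38 ± 0.0783 (SD, n = 2). The log2 fold change was 1.08 ± 0.179 (FDR = 3.01e-05) after stress in IPO13-/- ESCs and 1.07 ± 0.179 (FDR = 2.25e-05) between treated genotypes by edgeR. Leaving out 1 library at a time gave 0.97 to 1.26 and 0.99 to 1.16, each with an FDR below 0.05. In IPO13+/+ ESCs stress gave 0.54 ± 0.227 (FDR = 0.0877), and untreated genotypes differed by 0.53 ± 0.227 (FDR = 0.0699), which passed at 0.61 with an FDR of 0.0346 when scaled by library totals. The 10 neighbouring genes had medians of -0.05 after stress in IPO13-/- ESCs and 0.01 between treated genotypes.

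T, or Brachyury, the T-box factor that specifies mesoderm, lies at chr17:8434423-8442496 on the plus strand (ENSMUSG00000062327.10). Its counts were low, at 24 and 10 without and 13 and 12 with H2O2 in IPO13+/+ ESCs, and at 51 and 31 without and 21 and 29 with H2O2 in IPO13-/- ESCs. All libraries were above the floor of 3 counts, and every IPO13-/- library was above every IPO13+/+ library of the same treatment in CPM. The exact Poisson 95% interval of the lowest library, 10 counts, was 4.8 to 18.4, and that of the highest, 51 counts, was 38 to 67.1. Mean CPM was 0.250 ± 0.152, 0.182 ± 0.0123, 0.586 ± 0.123 and 0.397 ± 0.102 (SD, n = 2). The log2 difference between genotypes was 1.25 ± 0.321 (FDR = 0.00254) untreated and 1.11 ± 0.386 (FDR = 0.025) treated by edgeR. Single libraries decided the first: it was 0.73 with an FDR of 0.0886 without untreated IPO13+/+ replicate 2, 1.02 with an FDR of 0.113 without untreated IPO13-/- replicate 1, and 2.04 without untreated IPO13+/+ replicate 1. The second was lost with limma-voom (FDR = 0.0641) and DESeq2 (FDR = 0.0999). It was also lost without treated IPO13+/+ replicate 1 (FDR = 0.0857) or 2 (FDR = 0.125), without untreated IPO13-/- replicate 1 (FDR = 0.0572) or 2 (FDR = 0.0562), and without treated IPO13-/- replicate 2 (0.83, FDR = 0.233). Stress gave -0.44 ± 0.424 (FDR = 0.534) in IPO13+/+ and -0.59 ± 0.294 (FDR = 0.148) in IPO13-/- ESCs.

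Mixl1, a paired-type homeodomain factor of the primitive streak, lies at chr1:180693043-180697034 on the minus strand (ENSMUSG00000026497.7). IPO13+/+ libraries held 28 and 21 counts before and 25 and 23 after stress, and IPO13-/- libraries 39 and 27 before and 14 each after it. That pair was the lowest of the 8, with exact Poisson 95% intervals of 7.65 to 23.5 that overlapped those of every other library except untreated IPO13-/- replicate 1 (27.7 to 53.3). Mean CPM was 0.359 ± 0.0831, 0.350 ± 0.0245, 0.475 ± 0.0566 and 0.221 ± 0.00714 (SD, n = 2). Stress gave a log2 fold change of -1.11 ± 0.309 in IPO13-/- ESCs (edgeR FDR = 0.00718) and -0.03 ± 0.291 in IPO13+/+ ESCs (FDR = 1). The fall in IPO13-/- ESCs was lost with DESeq2 (FDR = 0.0746), without untreated IPO13-/- replicate 1 (-0.96, FDR = 0.103) and without treated IPO13-/- replicate 1 (-1.06, FDR = 0.0542). Between genotypes the difference was 0.42 ± 0.27 untreated (FDR = 0.25) and -0.66 ± 0.332 treated (FDR = 0.132). T and Mixl1, both genes of the streak, thus gave values of opposite sign between treated genotypes, and the difference passed the test for T alone.

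**Figure D4:**
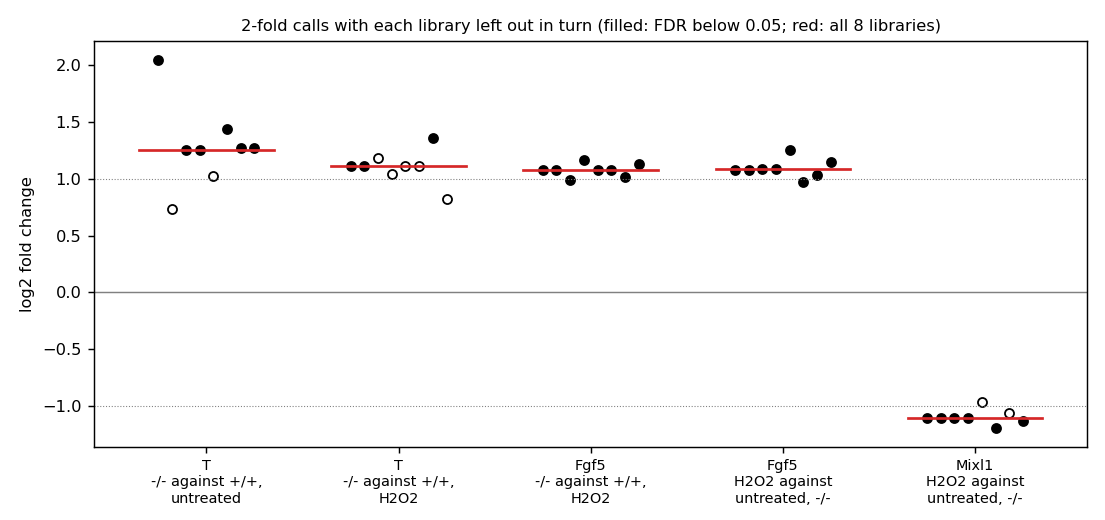
The y axis gives the log2 fold change of the 5 calls past 2-fold when each of the 8 libraries is left out in turn (points, filled where the edgeR FDR stayed below 0.05, in the order untreated IPO13+/+, treated IPO13+/+, untreated IPO13-/- and treated IPO13-/-), with the value from all 8 libraries in red. Both Fgf5 calls stayed filled throughout, T had 2 open points in untreated and 5 in treated cells, and Mixl1 had 2.

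The other genes of the same states were read from lists that were also chosen with earlier results known. Of 22 further formative and primed epiblast genes, 8 were higher and 10 lower in untreated and 9 higher and 11 lower in treated IPO13-/- ESCs with the FDR alone (edgeR). After stress 3 were higher and 11 lower in IPO13+/+ and 4 higher and 12 lower in IPO13-/- ESCs. Of all tested genes, 18.7% were higher and 19.4% lower between untreated and 19.1% and 17.5% between treated genotypes. After stress these shares were 11.5% and 13.8% in IPO13+/+ and 14.9% and 14.4% in IPO13-/- ESCs. Among genes averaging at least 1 CPM they were 25.1% and 28.4%, 26.5% and 24.4%, 15.1% and 21.4%, and 20.8% and 21.5%, in that order. The median log2 fold changes of the 22 genes were -0.03 and -0.18 between genotypes and -0.18 and -0.14 after stress. In the interaction, 1 of the 22 passed the FDR with a higher response in IPO13-/- ESCs and 0 with a lower one. The shares of all tested genes were 2.01% and 0.705%. Past 2-fold and averaging at least 1 CPM were Lef1, the transcription factor at the end of the canonical Wnt pathway, and Fgf15, a growth factor of the early embryo. Lef1 was higher in IPO13-/- ESCs, by 1.04 ± 0.0781 untreated (FDR = 2.29e-11) and 1.23 ± 0.0969 treated (FDR = 7.60e-11), and stress gave -1.07 ± 0.0975 in IPO13+/+ and -0.88 ± 0.0778 in IPO13-/- ESCs (FDR = 1.76e-09 and 6.86e-10). Fgf15 was lower in IPO13-/- ESCs, by -0.78 ± 0.106 untreated (FDR = 1.01e-06) and -1.05 ± 0.118 treated (FDR = 4.49e-08). Wnt8a, which averaged below 1 CPM, was also called past 2-fold, higher after stress in IPO13+/+ ESCs (0.401 against 0.1605 CPM). In IPO13-/- ESCs it was at 0.230 CPM after stress and 0.238 CPM before it.

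Among 22 further primitive streak and early mesoderm genes, of which 13 averaged below 1 CPM, 4 were higher and 2 lower in IPO13-/- ESCs in both the untreated and the treated comparison. Stress raised 5 and lowered 6 in IPO13+/+ ESCs, and raised 4 and lowered 7 in IPO13-/- ESCs. With the FDR alone, as here, 18.7% of all tested genes were higher and 19.4% lower untreated, and 19.1% and 17.5% treated. Stress raised 11.5% and lowered 13.8% of all tested genes in IPO13+/+ ESCs, and 14.9% and 14.4% in IPO13-/- ESCs. Medians of the 22 genes were -0.02 and -0.04 between genotypes and 0.05 and 0.13 after stress. The interaction passed for 1 of the 22 with a higher response in IPO13-/- ESCs and 0 with a lower one, against 2.01% and 0.705% of all tested genes. Past 2-fold after stress, Gsc, a homeobox gene of the streak's organizer, was lower in both genotypes (-1.05 ± 0.213, FDR = 4.51e-04 in IPO13+/+ and -1.03 ± 0.22, FDR = 6.09e-04 in IPO13-/- ESCs, edgeR), and Mesp2 and Wnt3a were higher in IPO13+/+ ESCs (1.27 ± 0.187, FDR = 6.93e-06, and 1.05 ± 0.211, FDR = 4.12e-04). Mesp2 and Wnt3a also rose in IPO13-/- ESCs, from 0.706 to 1.326 CPM and from 0.832 to 1.335 CPM, without a call past 2-fold. Wnt3a also passed 2-fold between untreated genotypes (1.03 ± 0.211, FDR = 2.81e-04), and all 3 averaged below 1 CPM. Wnt3, the Wnt ligand required to form the streak, reached an average of 1.29 CPM only through its treated groups (2.33 and 2.32 CPM, against 0.254 and 0.265 CPM untreated, IPO13+/+ first). It rose after stress by 3.18 ± 0.213 in IPO13+/+ (FDR = 3.40e-12) and 3.14 ± 0.215 in IPO13-/- ESCs (FDR = 4.60e-12), and its genotype differences were 0.03 and -0.01 (FDR = 0.994 and 0.996).

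Of 16 genes of naive pluripotency, 5 were higher and 7 lower in untreated and 4 higher and 5 lower in treated IPO13-/- ESCs. After stress 2 were higher and 11 lower in IPO13+/+ and 5 higher and 6 lower in IPO13-/- ESCs, with medians of -0.15 and 0.01. Among all genes averaging at least 1 CPM, 25.1% were higher and 28.4% lower between untreated and 26.5% and 24.4% between treated genotypes. After stress those shares were 15.1% and 21.4% in IPO13+/+ and 20.8% and 21.5% in IPO13-/- ESCs, all with the FDR alone. Prdm14, a repressor that guards the naive state, fell by 1.22 on the log2 scale in IPO13+/+ and by 1.71 in IPO13-/- ESCs (SE 0.0546 and 0.056, FDR = 7.41e-16 and 7.55e-19, edgeR). In the interaction, 2.01% of all tested genes passed the FDR with a higher and 0.705% with a lower response in IPO13-/- ESCs. Among genes averaging at least 1 CPM these shares were 3.15% and 1.05%. Of the 16 naive genes, 6 passed with a higher and 1 with a lower response. The 1 lower was Prdm14 (-0.49 ± 0.0785, FDR = 3.42e-04), and the median of the 16 was 0.14, where library totals in place of TMM factors moved the median of all genes averaging at least 1 CPM from 0.03 to -0.05.

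To place the patterns over all 8 libraries, the root mean square (RMS) difference between centred log2(CPM + 0.5) values was taken against 12198 genes averaging at least 1 CPM. The genes nearest to Otx2 were D730005E14Rik (0.0661) and Jph4 (0.0724), where the median gene differed by 0.369. For Fgf5 they were Fam107b (0.0634) and Trpm1 (0.0831) against a median of 0.395. T was nearest to Igsf10 (0.0584) and Ano1 (0.0692) against 0.309, and Mixl1 to Tmtc1 (0.0578) and 2610015P09Rik (0.0584) against 0.206. Around their own means the members had RMS values of 0.353 (Otx2), 0.37 (Fgf5), 0.289 (T) and 0.165 (Mixl1). A gene without any change would differ from them by just that much. The genes named are the nearest of 12198, so small values are due to the choice. The offset of 0.5 CPM compresses the changes of Fgf5, T and Mixl1, whose mean levels are near it, so the likeness is to a flattened pattern. After stress in IPO13-/- ESCs, Fam107b and Trpm1 changed by 0.78 and 0.81 on the log2 scale, against 1.08 for Fgf5.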

How the data were processed

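RNA from 8 ESC libraries was sequenced as TruSeq mRNA paired-end libraries (read length and lanes differ between the labels and the study's methods). The submitters' processing notes name bcl2fastq, STAR 2.3.1, HTSeq, limma and mm10. The gene annotation used for counting and whether strand was used are not given in the sources used here. The authors deposited a raw count and a CPM per gene and library. The deposited CPM equalled count over library total within 5.0e-04, and only counts were tested. Groups came from the sample titles.

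The main test was edgeR 4.0.16 in R 4.3.3 (quasi-likelihood, TMM factors, no block, all 8 libraries, common dispersion 0.00113) on the 19424 genes counted at least once over the libraries, with Benjamini-Hochberg adjustment and calls at an FDR below 0.05 with or without a 2-fold change. An exact permutation test of 2 against 2 libraries cannot go below 0.333 and was not used. CPM in the text is TMM-normalised, ± is the SD of CPM or the SE of a log2 fold change, and alternatives used limma-voom 3.58.1, DESeq2 1.42.0, other filters and scalings, subsets of libraries and a replicate block. Scripts were tested on simulated data. Positions came from GENCODE M21 (21751 symbols matched) and promoter sequence from RefSeq, where 5 of the 9 genes had an entry. There were 2 duplicated symbols in the tables, neither among the genes named.

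The members and lists were chosen with earlier results of these data known. Named are the 9 members, Ipo13, from the lists of other epiblast, other streak and naive genes those averaging at least 1 CPM that passed the FDR and 2-fold in any of the 4 main comparisons (up to 6 a list, up to 3 naive), and the 2 genes nearest in pattern to Otx2, Fgf5, T and Mixl1. Zic5, Gsc, Mesp2, Wnt3a, Wnt8a, the markers of other cell types and the overlapping genes lie outside this rule.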

Additional observations from a re-analysis of the deposited data

How the results depend on the processing

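Over 50 values (the 9 genes and Ipo13 in 5 comparisons) and 837 refits, 771 kept their direction and side of the FDR threshold, 25 lost it, 3 gained it, 38 others moved and none that had passed changed sign. The 2 members past 2-fold between treated genotypes became 1 with limma-voom, with DESeq2 and with DESeq2 without independent filtering (an alternative chosen after seeing the data), and 0 to 2 with a library left out. The 2 after stress in IPO13-/- ESCs became 1 with either DESeq2 setting and 1 to 2 with a library left out. The 1 between untreated genotypes became 0 to 1, and the 0 in the interaction became 0 to 1, with a library left out. Of all genes, 4908 passed the FDR after stress in IPO13+/+ ESCs, 3163 with only the 4 libraries compared and 2952 to 4729 with a library left out, the low values without either treated IPO13+/+ replicate (2952 and 3135). In IPO13-/- ESCs 5704 passed, and 3204 to 6455 with a library left out, 3204 without untreated replicate 1 and 3788 without treated replicate 2. The interaction held 527 genes, 255 with limma-voom, 294 with DESeq2, 251 with DESeq2 without independent filtering, 349 with filterByExpr, 1291 with the replicate block and 73 to 1157 with a library left out. The cause of these shifts was not tested. In fits without a library its lone partner was assumed to vary like the other groups. Replicate numbers were not shown to pair the samples, since deviations of same-numbered libraries correlated over 9209 genes at 0.35, 0.61 and 0.32 among untreated IPO13+/+ and both IPO13-/- groups, but at -0.08 to -0.0014 between each of these and treated IPO13+/+ ESCs. With the block the members past 2-fold were 1, 2, 0 and 2 in the genotype comparisons (untreated, treated) and the stress comparisons (IPO13+/+, IPO13-/-), as without it, and it changed no call of a member. For T and Mixl1, with 10 to 51 counts a library, depth limits what can be detected.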
